A study of Mus musculus with 6 samples.

Results

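Drd1 striatal projection neurons were selected on the raw counts of 7 genes, as nuclei in which the dopamine receptor gene Drd1 was read at 2 or more UMIs (unique molecular identifiers, 1 per captured RNA molecule) together with 5 or more UMIs of Rarb plus Pde10a. A nucleus was kept only with at most 1 UMI of Drd2 plus Adora2a and at most 2 UMIs of Otof plus Chst9. Of 60724 nuclei with at least 300 genes and at most 1% mitochondrial UMIs, 516 met this rule, among 63383 barcodes in all. The LPA libraries gave 83, 60 and 77 of these nuclei, and the vehicle libraries gave 110, 93 and 93.

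The nuclei came from C57BL/6 S-56 mice (strain from the methods of the study). At P7 the mice received 5 µl of lysophosphatidic acid (LPA, a signalling lipid carried in blood) or of vehicle, 0.01% bovine serum albumin, in the right lateral ventricle. Whole brains without olfactory bulb and cerebellum were collected at P15 in both groups, as 3 LPA and 3 vehicle libraries, each titled in the labels as a replicate brain. Nuclei without the neuronal antigen NeuN were sorted and read with the 10x Genomics 3′ v3 kit, so the Drd1 nuclei are the part of this population that entered a gate set against neurons. The labels do not match animals across groups, and p-values measure the spread between these libraries.

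Striatal projection neurons are the GABAergic output neurons of the striatum. Those of the direct pathway carry the D1 dopamine receptor, which raises cAMP through the G protein subunit encoded by Gnal and the adenylyl cyclase encoded by Adcy5, and release substance P and dynorphin. Those of the indirect pathway carry the D2 dopamine receptor and the adenosine receptor encoded by Adora2a, and release enkephalin. Both types lie in 2 compartments, the striosomes (patches) and the surrounding matrix.

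Library depth ranged from 48852970 to 65688644 UMIs, and the Drd1 nuclei had a median of 7565 UMIs and 3120 genes. Their summed UMIs per library, on which all tests rest, ranged from 562836 in LPA 2 to 1059675 in vehicle 1. Libraries of the same group differed by more than counting noise, at 2.12 to 3.97 times the chi-square that counting alone gives. Any pair of libraries shared 268 to 303 cell barcodes, and 6 Drd1 nuclei carried a barcode that was also present in another library. No barcode was a Drd1 nucleus in more than 1 library. Sex-linked genes placed LPA 1, vehicle 1 and vehicle 3 as male and the other libraries as female, so both groups held both sexes.

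The label was checked against genes that the rule did not use. Rbfox3, which encodes NeuN, had a UMI in 92.6% of the Drd1 nuclei, against 6.27% of nuclei gated on the oligodendrocyte gene Mog. The share in Drd2 nuclei, defined below, was 93.1%, so nuclei with the transcript were present after the sort. Ppp1r1b, which encodes the dopamine-regulated phosphatase inhibitor DARPP-32, was read in all 6 libraries at 77.5 to 133 CPM (UMIs of a gene per 1000000 UMIs of the Drd1 nuclei of a library). Gad1 and Gad2, which encode the enzymes of GABA synthesis, were read at 117 to 155 and 216 to 263 CPM. Slc17a7, the vesicular glutamate transporter of cortical neurons, was read at 5.33 to 37.7 CPM in the same nuclei. The Drd1 nuclei carried these transcripts of GABAergic projection neurons in every library.

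Some of the Drd1 barcodes also held RNA of other cell types. Scrublet called 167 of the 516 nuclei (32.4%) as doublets, against 28.3% of Drd2 nuclei and 18.0% of Mog nuclei. Over all nuclei kept it called 16.1% to 19.4% per library. In 136 Drd1 nuclei (26.4%) the 19 astrocyte, oligodendrocyte, precursor, microglia and vascular markers made up more than 0.2% of UMIs. Summed over the Drd1 nuclei the share of UMIs in these markers ranged from 0.271% to 0.353% with LPA and from 0.340% to 0.569% with vehicle, with none of the 19 at 0 in any library. Without the Scrublet calls the range over all 6 libraries was 0.0661% to 0.109%. Results that move with these markers are given with and without such nuclei.

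The genes of the rule are described without a test, because the rule bounds their UMIs. Drd1 had a median of 2 UMIs and at most 7 per nucleus. Its level was 273, 272 and 246 CPM in LPA 1, 2 and 3, and 274, 223 and 299 in vehicle 1, 2 and 3. Pde10a, which encodes the striatal phosphodiesterase 10A, had a median of 19 UMIs, and Rarb, which encodes a retinoic acid receptor, a median of 9. Drd2 was at 0 in 501 of the 516 nuclei, and Adora2a in 507. Across the threshold the level of Tac1 moved in steps. It was 28.5 CPM in nuclei that met every other condition with no Drd1 UMI, 92.3 with 1 Drd1 UMI, 142 with 2, 183 with 3 and 251 with 4 or more. The 982 nuclei with 1 Drd1 UMI therefore lie just outside the rule with a Tac1 level between those of the nuclei with none and with 2. A further 23 nuclei passed the Drd1 gate but had 2 or more UMIs of Drd2 plus Adora2a, and their median depth was 16924 UMIs. At the limit on Otof plus Chst9 the Tac1 level was 128 CPM in the 59 members with 2 UMIs and 122 CPM in the 31 nuclei with 3.

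Whether LPA altered how many Drd1 nuclei were recovered was asked from their share of all nuclei kept. The share was 0.974%, 0.584% and 0.846% in LPA 1, 2 and 3 and 1.36%, 0.749% and 0.755% in vehicle 1, 2 and 3. Vehicle 1 stood highest, and the other 5 libraries of both groups were interleaved. The means were 0.801% ± 0.198 (SD, n = 3) for LPA and 0.954% ± 0.350 (SD, n = 3) for vehicle, and the difference was smaller than this spread (difference -0.153 percentage points, two-sided exact permutation test over 20 assignments, p = 0.7). The smallest p this design allows is 0.1. The exact 95% binomial interval of a single library, which covers counting error only, was widest in vehicle 1 at 1.12% to 1.63% and narrowest in LPA 2 at 0.446% to 0.752%. Without vehicle 1 the difference had the opposite sign, at 0.0492 percentage points.

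Drd2 nuclei had 2 or more UMIs of Drd2 plus Adora2a and at most 1 of Drd1, with the other limits of the rule unchanged, and numbered 1884. Their gate sums 2 genes, whereas the Drd1 gate counts Drd1 alone. Drd1 nuclei made up 22.9%, 18.9% and 20.5% of Drd1 plus Drd2 nuclei in LPA 1, 2 and 3, and 28.5%, 20.0% and 18.8% in vehicle 1, 2 and 3. The means of 20.8% ± 2.04 and 22.4% ± 5.28 (SD, n = 3 each) were closer than the spread between libraries (two-sided exact permutation test, p = 0.9). At a receptor gate of 3 UMIs for both classes the share fell to 9.92% to 12.1% with LPA and 7.51% to 16.7% with vehicle, so its size depends on the gate. The sort selects against NeuN and the gates rest on receptor UMIs, so these shares are shares of the sorted and gated nuclei and not of the striatum.

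**Figure D1:**
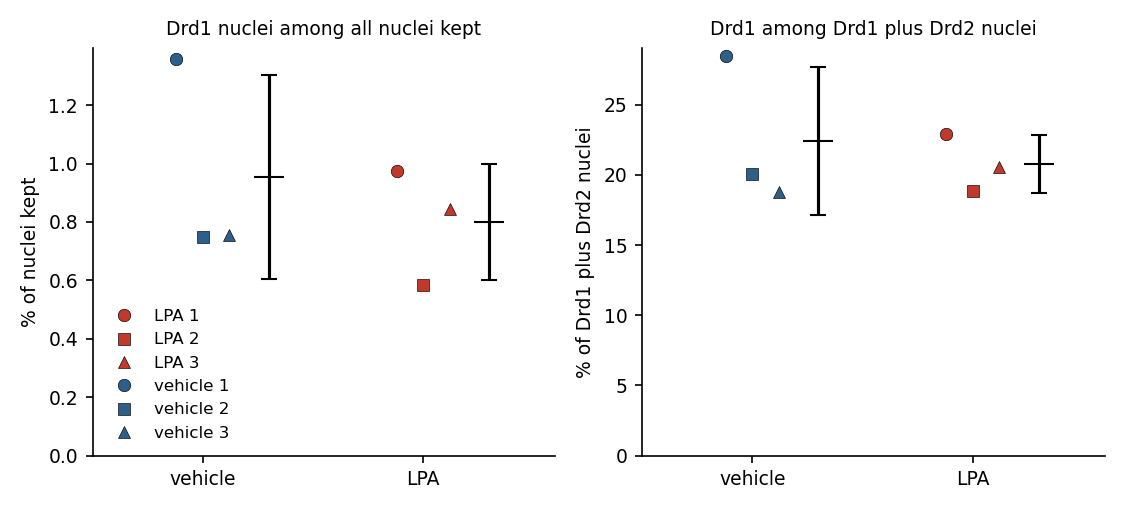
Drd1 nuclei as a percent of all nuclei kept (left) and of Drd1 plus Drd2 nuclei (right), 1 point per library, with the group mean and SD beside the points. Vehicle 1 is the highest library in both panels, at 1.36% and 28.5%, and the other vehicle libraries lie within 0.584% to 0.974%, the range of the LPA libraries, in the left panel and at 18.8% and 20.0% in the right panel, where the LPA libraries span 18.9% to 22.9%.

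The comparison of Drd1 with Drd2 nuclei within each library asked which genes outside the rule separate the direct from the indirect pathway in these mice. The neuropeptide genes Tac1 and Pdyn and the transcription factor gene Isl1 were far higher in Drd1 nuclei, and the neuropeptide gene Penk and the receptor genes Gpr6 and Oprd1 were far lower. Of 11798 genes tested on UMIs summed per library, 69 were called (0.585%), which took an adjusted p below 0.05 and a fold of 1 or more on the log2 scale in either direction. In Drd1 nuclei 42 of them were higher (0.356%) and 27 lower (0.229%), by edgeR's quasi-likelihood test with library as a block.

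Tac1, the precursor gene of substance P and neurokinin A, lies on chr6:7554879-7565834 (mm10, plus strand). Its level in Drd1 nuclei was 170, 114 and 202 CPM in LPA 1, 2 and 3 and 203, 126 and 159 in vehicle 1, 2 and 3. In Drd2 nuclei it was 18.2, 14.4, 15.1, 9.98, 14.6 and 12.9 in the same order. The lowest Drd1 value was above the highest Drd2 value, and the log2 fold change was 3.48 ± 0.13 (SE, edgeR, adjusted p = 7.05e-15). A Tac1 UMI was present in 63.6% of Drd1 nuclei and 7.91% of Drd2 nuclei, whose median depth was 7201 UMIs. In Mog nuclei, which should lack the gene, the share was 2.38% at a median of 5534 UMIs. After thinning every nucleus to 4000 UMIs the Tac1 shares were 45.7%, 4.10% and 1.42%, with 17 Drd1 nuclei left out as too shallow.

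Pdyn, the precursor gene of dynorphin on chr2:129686565-129699844 (minus strand), had the largest fold of the named genes. Its level in Drd1 nuclei was 16.9, 19.5 and 34.9 CPM in LPA 1, 2 and 3, and 35.9, 19.4 and 32.6 in vehicle 1, 2 and 3. In Drd2 nuclei every library lay between 0.735 and 1.61 CPM, and the log2 fold change was 4.39 ± 0.27 (SE, edgeR, adjusted p = 6.78e-11). Isl1, a LIM homeodomain factor of the direct pathway on chr13:116298281-116309689 (minus strand), ranged from 15.5 to 29.9 CPM in Drd1 nuclei and from 1.47 to 5.50 in Drd2 nuclei. Its log2 fold change was 2.80 ± 0.27 (SE, edgeR, adjusted p = 1.68e-07). The classes of Tac1, Pdyn and Isl1 did not overlap in these 6 libraries.

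The peptide transcripts were not uniform among the Drd1 nuclei. Tac1 had a UMI in 328 of them and Pdyn in 97, of which 68 had both. Penk was read in 50 (9.69%), and 142 nuclei (27.5%) had no UMI of Tac1, Pdyn or Penk. At this depth a missing UMI does not show that a nucleus lacks the transcript.

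The sequences before the start sites of Isl1 and Pdyn are shown because both genes separate the classes without overlap. The letters TGACG, the core of the cAMP response element bound by CREB, were searched on both strands in the 250 bases before each RefSeq start, and matches are in capitals. Overlapping matches to other motifs were not looked for. On GRCm38.p6 the windows are chr13:116309689-116309938 and chr2:129699939-129700188, both on the minus strand and given 5′ to 3′.
Isl1: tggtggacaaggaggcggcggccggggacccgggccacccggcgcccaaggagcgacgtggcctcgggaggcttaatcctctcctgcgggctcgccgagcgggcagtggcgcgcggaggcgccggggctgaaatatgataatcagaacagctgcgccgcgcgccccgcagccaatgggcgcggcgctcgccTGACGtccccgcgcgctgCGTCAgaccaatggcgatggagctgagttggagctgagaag
Pdyn: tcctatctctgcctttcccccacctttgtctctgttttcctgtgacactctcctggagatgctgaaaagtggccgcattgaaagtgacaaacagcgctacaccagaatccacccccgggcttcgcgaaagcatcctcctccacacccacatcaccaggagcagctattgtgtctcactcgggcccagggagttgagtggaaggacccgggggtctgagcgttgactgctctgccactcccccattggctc
Isl1 has 2 matches, which begin 59 and 41 bases before the start, and the printed Pdyn window has 0. The window of another RefSeq start of Pdyn, chr2:129698659-129698908 (minus strand, not printed), also has 0. The corresponding window of Tac1, not printed because the GENCODE gene model begins inside it, has 2 matches, 197 and 43 bases before the start. Of 32851 mouse promoter windows of this length 17.8% hold the letters at least once. A match describes the letters in the window and not a site that is used.

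Gene lists of known roles gave the same picture by counts. Of the direct pathway list, 6 of 8 genes passed the filter on low counts and 5 were higher in Drd1 nuclei. Beside Tac1, Pdyn and Isl1 these were Ebf1, a transcription factor of the direct pathway (log2 fold change 1.63 ± 0.12), and Sfxn1, a mitochondrial serine carrier (1.05 ± 0.12). Of the indirect pathway list 5 of 6 genes were tested and 4 were lower, namely Penk, Gpr6, Sp9 and Grik3. These lists were drawn up with earlier results of these data known, and their direction follows the pathways that the receptor gates set apart.

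Penk, the enkephalin precursor gene on chr4:4133531-4138819 (minus strand), was read at 10.4, 23.1 and 19.9 CPM of Drd1 nuclei in LPA 1, 2 and 3, and at 15.1, 12.6 and 16.3 in vehicle 1, 2 and 3. In Drd2 nuclei it ranged from 157 to 196 CPM. The log2 fold change was -3.44 ± 0.12 (SE, edgeR, adjusted p = 5.56e-15), and Penk had a UMI in 66.4% of Drd2 nuclei. Gpr6, an orphan receptor of indirect pathway neurons, had a log2 fold change of -4.06 ± 0.25, with 0.969 to 5.33 CPM in Drd1 nuclei and 31.8 to 55.0 in Drd2 nuclei.

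Receptors for other modulators also separated the classes. Of 18 tested in that list 1 was higher in Drd1 nuclei and 3 were lower. Drd3, the D3 dopamine receptor gene, ranged from 19.5 to 44.8 CPM in Drd1 nuclei and from 5.78 to 12.9 in Drd2 nuclei (log2 fold change 1.96 ± 0.18). Oprd1, the delta opioid receptor gene, was at 0 in the Drd1 nuclei of vehicle 2, at 2.60 to 5.33 CPM in the other 5 libraries, and at 32.8 to 49.1 in Drd2 nuclei (log2 fold change -3.90 ± 0.26). Chrm3, the M3 muscarinic receptor gene, ranged from 55.1 to 182 CPM in Drd1 nuclei and from 234 to 344 in Drd2 nuclei (log2 fold change -1.39 ± 0.13). Chrm4, the M4 muscarinic receptor gene known from direct pathway neurons, did not pass the filter on low counts, at 0.969 to 3.90 CPM in Drd1 nuclei and 0 to 0.688 in Drd2 nuclei.

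The genes that projection neurons share were not called between the classes. None of 18 shared projection neuron genes passed the limits, with a median log2 fold change of -0.24 against 0.01 over all genes, and none of 36 dopamine and cAMP signalling genes, with a median of -0.02. Of 41 voltage-gated channel genes tested 0 were called, of 21 GABA system genes 0, and of 22 glutamate receptor genes 1, Grik3. Of 8 striosome genes 1 was called, Tshz1, a zinc finger factor gene (1.24 ± 0.09), and of 6 matrix genes 0. Rbfox3 had a log2 fold change of -0.07 ± 0.08 (edgeR, adjusted p = 0.848). A missed call does not show that levels were equal.

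Beyond the lists, the largest folds in Drd1 nuclei were those of Impg1, which encodes a proteoglycan known from the retina (3.42 ± 0.30), and Cntnap3, which encodes a contactin-associated adhesion protein (3.06 ± 0.17). Cntnap3 was read at 129, 151 and 146 CPM in LPA 1, 2 and 3 and at 126, 65.9 and 137 in vehicle 1, 2 and 3, against 8.29 to 18.7 in Drd2 nuclei. The lowest library, vehicle 2, was still over the Drd2 range. Sntg2, which encodes gamma-2 syntrophin, ranged from 63.2 to 116 CPM in Drd1 nuclei and from 16.8 to 25.2 in Drd2 nuclei (log2 fold change 2.25 ± 0.13).

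Nos1, which encodes neuronal nitric oxide synthase, behaved otherwise. Its level in Drd1 nuclei was 81.9, 72.8 and 29.9 CPM in LPA 1, 2 and 3 and 3.77, 24.2 and 36.6 in vehicle 1, 2 and 3. Vehicle 1 lay below the Drd2 values of 5.88 to 19.6, so the ranges overlapped although the gene passed the limits (log2 fold change 2.05 ± 0.24, edgeR, adjusted p = 2.86e-06). A UMI was present in only 5.04% of Drd1 nuclei and 4.56% of Drd2 nuclei, so few Drd1 nuclei held all of these UMIs. The other named genes higher in Drd1 nuclei were the unannotated or predicted genes B020031H02Rik, Gm40663 and Gm45680, at log2 fold changes of 2.52, 2.39 and 2.34.

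Among genes lower in Drd1 nuclei, Unc5d, a netrin receptor gene, ranged from 176 to 253 CPM against 519 to 623 in Drd2 nuclei (log2 fold change -1.55 ± 0.08). Grik3, a kainate receptor subunit gene, was at 42.9 to 124 against 228 to 291 (-1.85 ± 0.12). Sgcz, which encodes a sarcoglycan, had -1.42 ± 0.08, the phosphoinositide phosphatase gene Fig4 -1.47 ± 0.11, and Nt5e, which encodes the ecto-5′-nucleotidase that makes adenosine, -1.45 ± 0.17. The predicted gene Gm19410 fell in the same direction at -2.50 ± 0.18. The ranges of Unc5d, Grik3, Sgcz, Fig4 and Nt5e did not overlap between the classes. These genes were named by their folds, and the share of all genes tested that separate in this way is not given for comparisons of classes. The named genes of this comparison kept their direction and their side of the limits in all 342 recomputations under other settings, Rbfox3 as a gene that was not called. The number of genes called rose to 135 without the Scrublet calls and to 114 without nuclei over 0.2% non-neuronal markers.

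**Figure D2:**
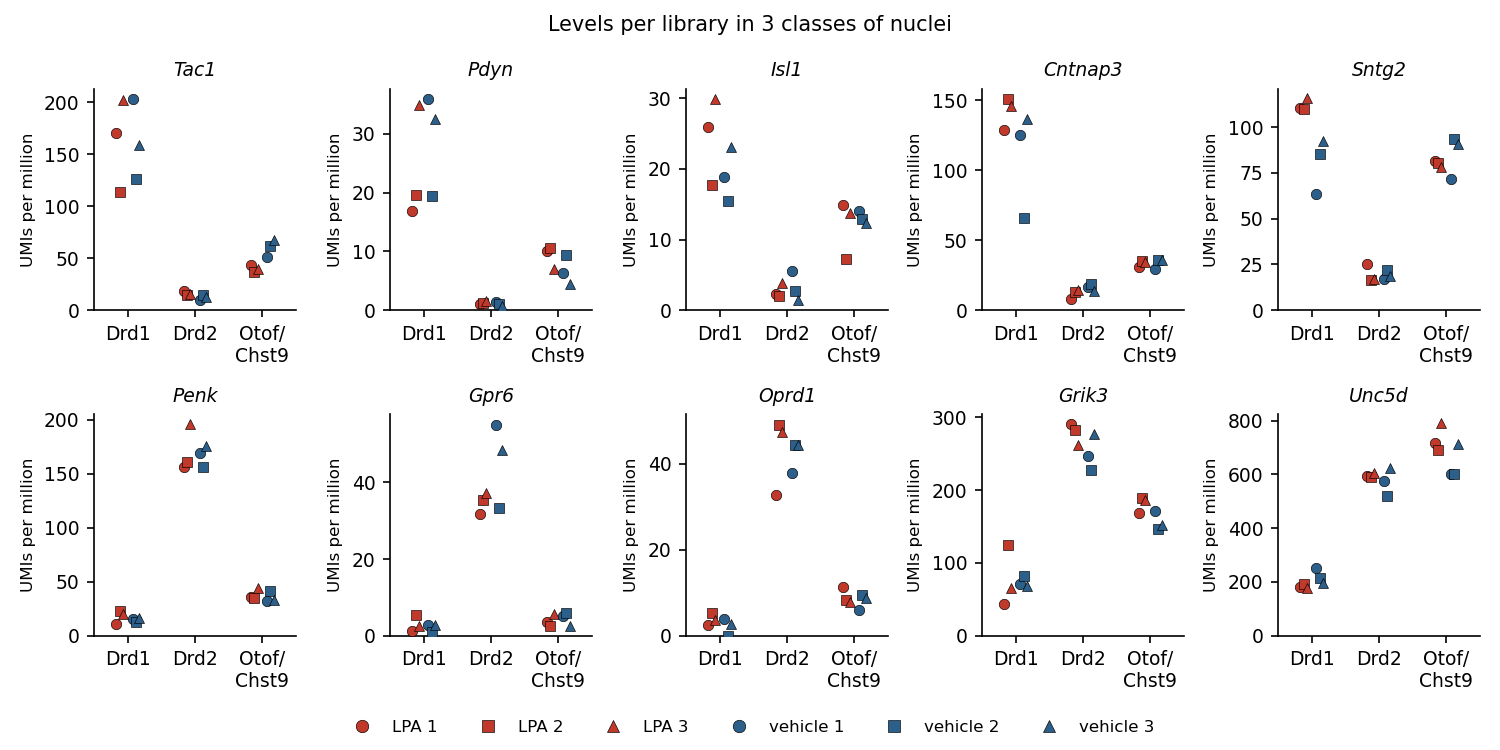
Levels of 10 genes in CPM of the class, 1 point per library, for Drd1, Drd2 and Otof/Chst9 nuclei. Tac1, Pdyn, Isl1, Cntnap3 and Sntg2 are higher in Drd1 than in Drd2 nuclei in every library, Penk, Gpr6, Oprd1, Grik3 and Unc5d are lower, and the Sntg2 points of Otof/Chst9 nuclei (71.9 to 93.7) lie among those of Drd1 nuclei.

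A second comparison set the Drd1 nuclei beside 1099 nuclei with 3 or more UMIs of Otof plus Chst9, which the rule leaves out. These met the limit on Rarb plus Pde10a, but no limit was set on their Drd1, Drd2 or Adora2a UMIs. Among them, 110 met every other condition of the Drd1 rule. A Tac1 UMI was present in 29.8% of the Otof/Chst9 nuclei and a Penk UMI in 26.2%, against 63.6% and 9.69% of Drd1 nuclei. The folds therefore compare Drd1 nuclei with a mixed group. Of the genes shared by projection neurons 10 of 18 were higher in Drd1 nuclei, and of the dopamine and cAMP signalling genes 11 of 36. Of 10521 genes tested, 172 were called (1.63%), 108 higher (1.03%) and 64 lower (0.608%) in Drd1 nuclei, by edgeR's quasi-likelihood test with library as a block. The Otof/Chst9 nuclei had a median of 7935 UMIs against 7565 in Drd1 nuclei, and 37.7% of them were Scrublet calls against 32.4%. After thinning to 4000 UMIs 177 genes were called.

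Of 18 shared projection neuron genes 10 were higher in Drd1 nuclei and 0 lower, with a median log2 fold change of 1.04 against -0.0018 over all genes. Ppp1r1b ranged from 77.5 to 133 CPM in Drd1 nuclei and from 20.2 to 48.2 in Otof/Chst9 nuclei (log2 fold change 1.68 ± 0.12). Scn4b, the sodium channel beta-4 subunit gene on chr9:45138395-45154152, ranged from 32.0 to 63.6 against 6.16 to 13.0 (2.44 ± 0.17). Pde1b, a calmodulin-dependent phosphodiesterase gene, ranged from 140 to 257 against 47.1 to 67.4 (1.84 ± 0.09). None of these ranges overlapped.

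Of 36 dopamine and cAMP signalling genes 11 were higher and 0 lower, with a median log2 fold change of 0.34. Adcy5 had a log2 fold change of 1.27 ± 0.08 at 470 to 627 CPM against 205 to 260. Gnal had 1.07 ± 0.09, Gng7, which encodes the G protein gamma subunit that pairs with it, 1.21 ± 0.08, and Rgs9, a brake on dopamine receptor signalling, 1.22 ± 0.08. Among modulator receptors the cannabinoid receptor gene Cnr1 (1.56 ± 0.13) and the kappa opioid receptor gene Oprk1 (1.53 ± 0.24) were higher, 2 of 15 tested. Without nuclei over 0.2% non-neuronal markers 7 of the 18 and 10 of 35 genes were called, all higher.

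The largest folds were those of Myo3b, which encodes a class III myosin (2.76 ± 0.13), Impg1 (2.62 ± 0.29), Scn4b, the long non-coding RNA gene Gm10754 (2.33 ± 0.11), Gm38575 (2.29 ± 0.22) and Mhrt (2.27 ± 0.12). Mhrt is an antisense transcript and the strand setting of the counting is not given in the sources used here. Kcng1, a potassium channel subunit gene, had 2.20 ± 0.24, Prkch, a protein kinase C gene, 2.00 ± 0.13, Gm31251 1.99 ± 0.22 and Cntnap3 1.91 ± 0.14. Myo3b was read at 152, 123 and 184 CPM of Drd1 nuclei in LPA 1, 2 and 3 and at 92.5, 75.6 and 147 in vehicle 1, 2 and 3, against 13.2 to 25.8 in Otof/Chst9 nuclei. Against Drd2 nuclei the log2 fold changes of Myo3b and Scn4b were -0.39 ± 0.11 and -0.33 ± 0.11, short of the limit of 1.

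Lower in Drd1 nuclei were Cpne7, a copine gene (-1.88 ± 0.18), Unc5d (-1.71 ± 0.10), Mecom, a zinc finger factor gene (-1.67 ± 0.29), Gm15345 (-1.53 ± 0.24), the phosphatase gene Ptpn3 (-1.53 ± 0.17), Zfp804b (-1.41 ± 0.18) and the protocadherin gene Pcdh8 (-1.40 ± 0.21). Tafa1, Sphkap and Kcnj6 followed at -1.39, -1.38 and -1.33. Unc5d ranged from 176 to 253 CPM in Drd1 nuclei and from 600 to 792 in Otof/Chst9 nuclei. Mecom was at 0 in LPA 2 and at 30.2 CPM in vehicle 1, above the lowest Otof/Chst9 library at 22.0, so its ranges overlapped.

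The calls against the 2 classes were partly the same. In both comparisons 8 genes were higher in Drd1 nuclei, among them Tac1, Pdyn, Impg1, Cntnap3, Ebf1, Npy and Atp6ap1l, and they make up 19.0% of the 42 and 7.41% of the 108. Penk, Grik3, Unc5d, Cpne7, Mecom and Htr7 were lower in both, 6 genes that make up 22.2% of the 27 and 9.38% of the 64. Both comparisons use the same Drd1 nuclei, so these overlaps are given as counts only.

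**Figure D3:**
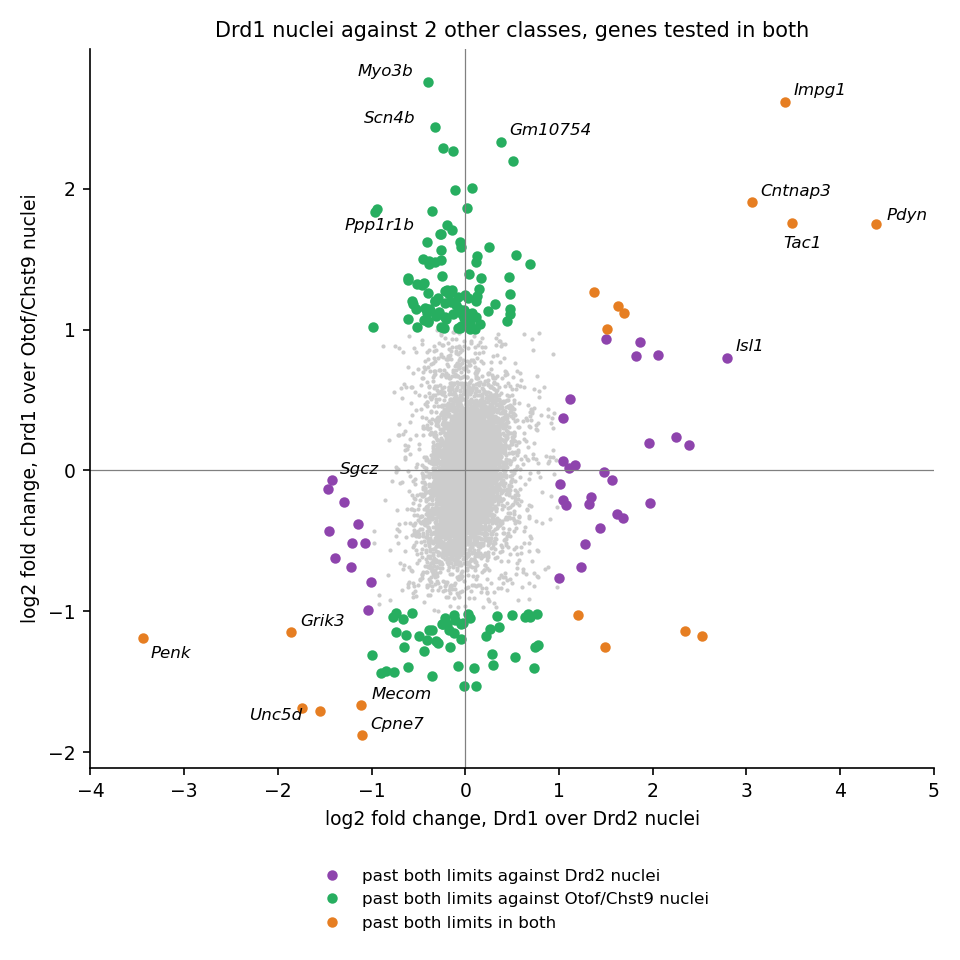
Log2 fold change of Drd1 over Drd2 nuclei (x axis) and over Otof/Chst9 nuclei (y axis), 1 point per gene tested in both, coloured by which comparison called it. Tac1, Pdyn, Impg1 and Cntnap3 lie at the upper right, Penk, Grik3 and Unc5d at the lower left, and Myo3b, Scn4b and Ppp1r1b are high on the y axis and below 0 on the x axis.

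Variation among the Drd1 nuclei was followed with 3 striosome genes, Oprm1 (the mu opioid receptor), Kremen1 and Sema5b. With 3 or more UMIs of their sum, 222 nuclei (43.0%) were taken as striosome-marker nuclei, and 128 (24.8%) had none. The striosome-marker share was 41.0%, 36.7% and 39.0% of Drd1 nuclei in LPA 1, 2 and 3 and 42.7%, 48.4% and 47.3% in vehicle 1, 2 and 3. It was given no test, since it was not among the comparisons planned. The 3 gate genes are descriptions and were left out of the fit.

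With the gate 3 of 5 striosome genes tested rose and 3 of 4 matrix genes tested fell. Of 4566 genes tested, 230 were called (5.04%), here with a fold of 0.5 or more on the log2 scale, 125 higher (2.74%) and 105 lower (2.30%) in striosome-marker nuclei, by edgeR's quasi-likelihood test with library as a block. The striosome genes that rose were the transcription factor genes Bach2 (1.54 ± 0.19) and Tshz1 (1.49 ± 0.22) and the RNA-binding protein gene Khdrbs3 (1.03 ± 0.27). The matrix genes that fell were Rasgrp2, a Rap activator gene (-1.38 ± 0.24), Sv2b, a synaptic vesicle protein gene (-1.35 ± 0.25), and the ephrin receptor gene Epha4 (-0.75 ± 0.15). Without Scrublet calls 3 of 4 striosome genes tested were higher and 1 of 3 matrix genes lower, and Sv2b was at -0.82 (edgeR, adjusted p = 0.0709).

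Bach2, on chr4:32238804-32586108, was read at 278, 244 and 248 CPM of striosome-marker nuclei in LPA 1, 2 and 3 and at 250, 313 and 261 in vehicle 1, 2 and 3. In the nuclei with none of the 3 genes it was at 101, 118, 82.6, 44.8, 101 and 117 in the same order. The groups did not overlap, and Bach2 kept its call without Scrublet calls (1.68 ± 0.22, edgeR, adjusted p = 2.23e-05). Rbm20, which encodes an RNA-binding splicing regulator, showed the largest fold (2.87 ± 0.35), at 55.8 to 81.3 CPM against 5.34 to 12.6. Other named genes higher in striosome-marker nuclei were Gm4876 (2.37), the extracellular matrix genes Spon1 (1.86) and Fbn2 (1.73), the synaptic cadherin-related gene Clstn2 (1.78), and Zfpm2, Fign, Prkcq and Cadps2 at 1.71, 1.63, 1.54 and 1.54.

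Lower in striosome-marker nuclei were Mei4 (-1.89), the actin-binding protein gene Nexn (-1.57), the thyroid hormone-binding protein gene Crym (-1.55), the cadherin gene Cdh7 (-1.47), Dchs2 (-1.25), the potassium channel gene Kcnh4 (-1.24), the adhesion gene Lingo2 (-1.13) and Prkch (-1.12). Crym was at 18.6 to 58.4 CPM in striosome-marker nuclei and at 76.7 to 194 in the nuclei with none, without overlap. Sv2b ranged from 29.4 to 73.4 against 85.5 to 164, and Rasgrp2 from 18.6 to 45.5 against 58.8 to 118. The groups of both genes were separate.

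Of 17 shared projection neuron genes 7 were lower and 0 higher, and of 30 dopamine and cAMP signalling genes 7 were lower and 0 higher. Ppp1r1b had a log2 fold change of -0.94 ± 0.19, at 54.3 to 120 CPM against 112 to 199, and Adcy5 -0.70 ± 0.14. Measures of depth and other cells moved with the gate as well. Striosome-marker nuclei had a median of 8617.5 UMIs against 6821.5, Scrublet called 39.6% against 19.5%, and the 5 astrocyte markers took 0.156% of UMIs against 0.0641%. The astrocyte transporter genes Slc1a2 (1.17 ± 0.19) and Slc1a3 (1.25 ± 0.22) were higher with the gate. After thinning to 4000 UMIs 140 of 1920 genes were called, 79 higher and 61 lower. Without Scrublet calls 1 of 16 shared genes was higher and 0 lower, 1 of 26 dopamine and cAMP genes was higher and 2 lower, and Ppp1r1b was at -0.51 (edgeR, adjusted p = 0.179) and Adcy5 at -0.37 (adjusted p = 0.103). Bach2, Tshz1, Spon1, Lingo2, Mei4 and Crym kept their calls without Scrublet calls, without nuclei over 0.2% non-neuronal markers and under the upper UMI limit. Sv2b without Scrublet calls and Cdh7 with non-neuronal markers at most 0.2% (-1.004, edgeR, adjusted p = 0.0601) did not. At a receptor gate of 3 UMIs Bach2 (1.35), Mei4 (-1.44) and Prkch (-0.99) lost their calls (edgeR, adjusted p = 0.0825, 0.0892 and 0.209). Prkcq lost its call with DESeq2, at a striosome gate of 2 UMIs and without LPA 1, LPA 2, vehicle 1 or vehicle 2. Kcnh4 lost its call with DESeq2, Nexn without vehicle 2 and Prkch also without vehicle 1.

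**Figure D4:**
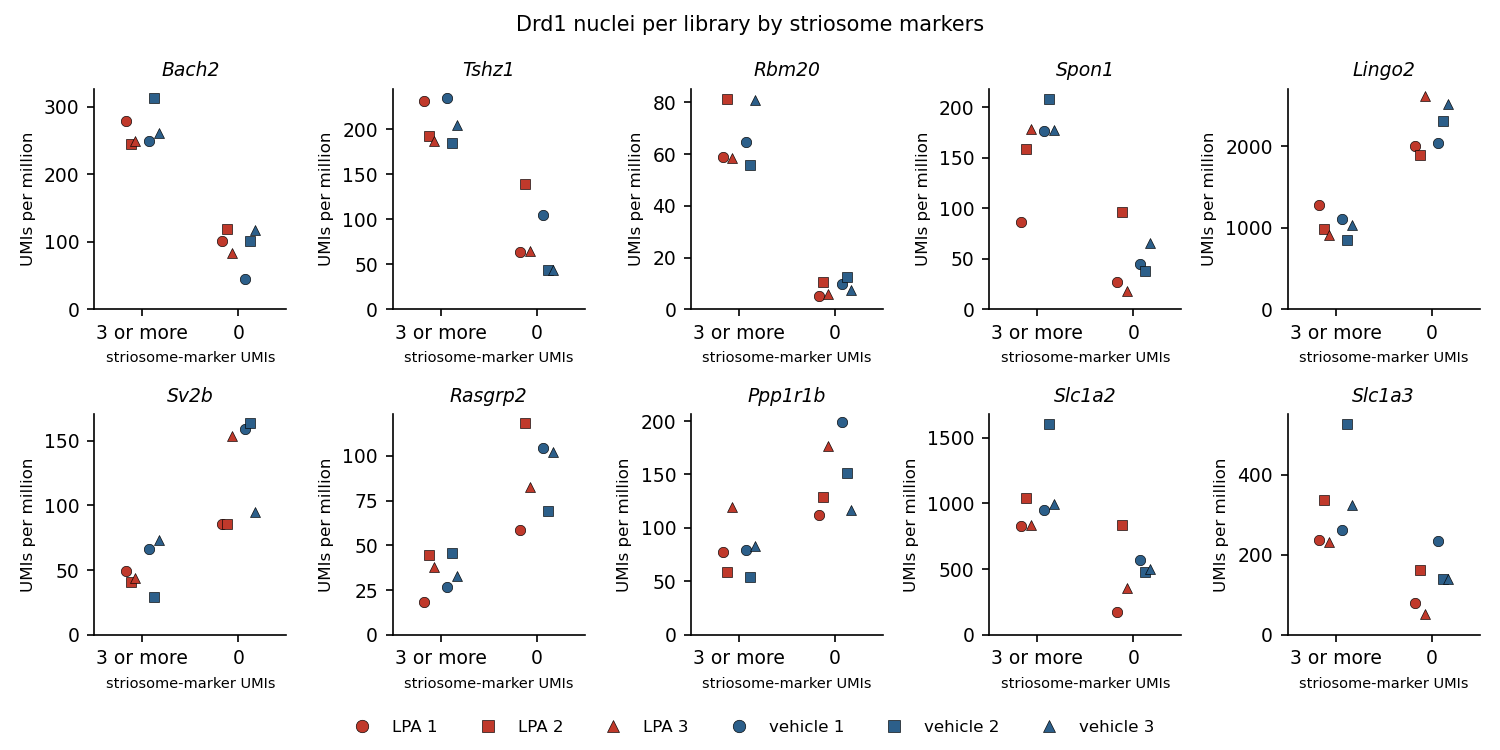
Levels of 10 genes in CPM, 1 point per library, in Drd1 nuclei with 3 or more UMIs of Oprm1, Kremen1 and Sema5b and in those with 0. Bach2, Rbm20 and Lingo2 separate the groups in every library, and the astrocyte genes Slc1a2 and Slc1a3 are also higher with the gate.

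The comparison of LPA with vehicle asked how the Drd1 nuclei differed between the groups at P15. Mitochondrially encoded transcripts and a few genes of meningeal and astroglial cells were lower in the LPA libraries, and no gene was called higher. Of 9349 genes tested, 9 were called (0.0963%), here with a fold of 0.25 or more on the log2 scale, 0 higher and 9 lower. By edgeR's quasi-likelihood test 755 genes had an unadjusted p under 0.05, and DESeq2 called 5 genes. The median log2 fold change over all genes was -0.0030.

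The called mitochondrial genes encode cytochrome c oxidase subunits and cytochrome b. mt-Co3 was read at 53.3, 60.4 and 146 CPM in LPA 1, 2 and 3 and at 278, 249 and 315 in vehicle 1, 2 and 3 (log2 fold change -1.61 ± 0.25, edgeR, adjusted p = 0.0287). mt-Co1 was at 33.8, 48.0 and 87.2 in the LPA libraries and at 175, 133 and 202 in the vehicle libraries (-1.51 ± 0.24, edgeR, adjusted p = 0.0298). mt-Co2 (-1.67 ± 0.29) and mt-Cytb (-1.58 ± 0.28) were called as well. All 10 of the 13 mitochondrial genes that could be tested had lower values in LPA, and in 9 of them every LPA library lay below every vehicle library, a pattern that 6.55% of all genes showed.

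The same split was present in Drd2 nuclei and over all nuclei kept, but not in Otof/Chst9 nuclei. Mitochondrial genes took 0.0194% to 0.0639% of the UMIs of Drd1 nuclei with LPA, below the 0.0946% to 0.155% with vehicle. As a mean over nuclei the percent was 0.0207 to 0.0457 against 0.0835 to 0.110 in Drd2 nuclei, and 0.0285 to 0.0583 against 0.0815 to 0.111 over all nuclei kept. In Otof/Chst9 nuclei the groups overlapped, at 0.0235% to 0.0732% of UMIs with LPA against 0.0690% to 0.111% with vehicle. They also overlapped in striosome-marker Drd1 nuclei, at 0.0170% to 0.0935% against 0.0907% to 0.150%. The nuclei were kept only up to 1% mitochondrial UMIs, and without that filter 12 genes were called. What sets this difference was not tested.

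Also called were Bnc2 (-1.94 ± 0.35), a zinc finger factor gene of fibroblasts, Cemip (-1.26 ± 0.22), a hyaluronan-degrading protein gene, Slc6a20a (-1.26 ± 0.23), a proline transporter gene that was in the vascular and meningeal marker list, and Apoe (-0.98 ± 0.18), the apolipoprotein E gene of astrocytes and microglia. Bnc2 was at 5.20, 32.0 and 39.9 CPM in LPA 1, 2 and 3 and at 73.6, 112 and 119 in vehicle 1, 2 and 3. Apoe was at 274, 235 and 167 against 410, 599 and 365. LPA and vehicle libraries did not overlap in either gene.

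Markers of other cells differed in direction in these nuclei. The 5 astrocyte markers took 0.0906% to 0.100% of UMIs in LPA and 0.114% to 0.178% in vehicle, with 0 of 5 markers at 0 in any library. The 4 vascular and meningeal markers took 0.00462% to 0.00728% in LPA and 0.00936% to 0.0179% in vehicle. The 3 interneuron markers took more in every LPA library, at 0.00284% to 0.00337% against 0.00122% to 0.00233%, with 1 of 3 at 0 in a library. The 4 microglia markers took 0.00872% to 0.0153% in LPA and 0.00793% to 0.0114% in vehicle, with overlapping groups, and with non-neuronal markers at most 0.2% every LPA library lay above every vehicle library (0.00669% to 0.0142% against 0.00411% to 0.00539%). The oligodendrocyte markers (0.158% to 0.228% against 0.204% to 0.353%) and precursor markers (0.00364% to 0.00735% against 0.00326% to 0.0107%) overlapped between the groups. Scrublet calls made up 25.3%, 26.7% and 32.5% of the Drd1 nuclei in LPA 1, 2 and 3, and 30.9%, 40.9% and 35.5% in vehicle 1, 2 and 3. In the same order 9, 11 and 14 of 83, 60 and 77 nuclei were over the upper UMI limit with LPA. With vehicle these were 20, 25 and 20 of 110, 93 and 93. The part of these markers and nuclei in the calls was not tested beyond the sets of nuclei given here. Without Scrublet calls 5 genes were called, and Apoe was at a log2 fold change of 0.07 (edgeR, adjusted p = 0.990). With non-neuronal markers at most 0.2%, Slc6a20a was at 0.15 (edgeR, adjusted p = 0.989) and Cemip at -0.46 (adjusted p = 0.933). mt-Co3, mt-Co2 and mt-Co1 stayed called in both settings, with mt-Co3 at -1.77 and -1.74. No other gene of the 9 was called in either setting, with mt-Cytb at -1.18 (edgeR, adjusted p = 0.671) and -1.33 (adjusted p = 0.250). Bnc2, Cemip and Slc6a20a did not pass the filter on low counts without Scrublet calls, so they were not tested there. With non-neuronal markers at most 0.2%, Bnc2 was at -1.81 (edgeR, adjusted p = 0.795). By DESeq2 mt-Co3 and mt-Co2 had adjusted p of 0.376 and 0.566. At a receptor gate of 3 UMIs mt-Co3, mt-Co1 and mt-Co2 were at -1.61, -1.47 and -1.19 (edgeR, adjusted p = 0.428, 0.428 and 0.863). Without vehicle 3, mt-Co1, mt-Co2 and mt-Cytb missed the threshold (edgeR, adjusted p = 0.0658, 0.0869 and 0.0869). Leaving out LPA 1 or LPA 2 left 0 genes called.

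**Figure D5:**
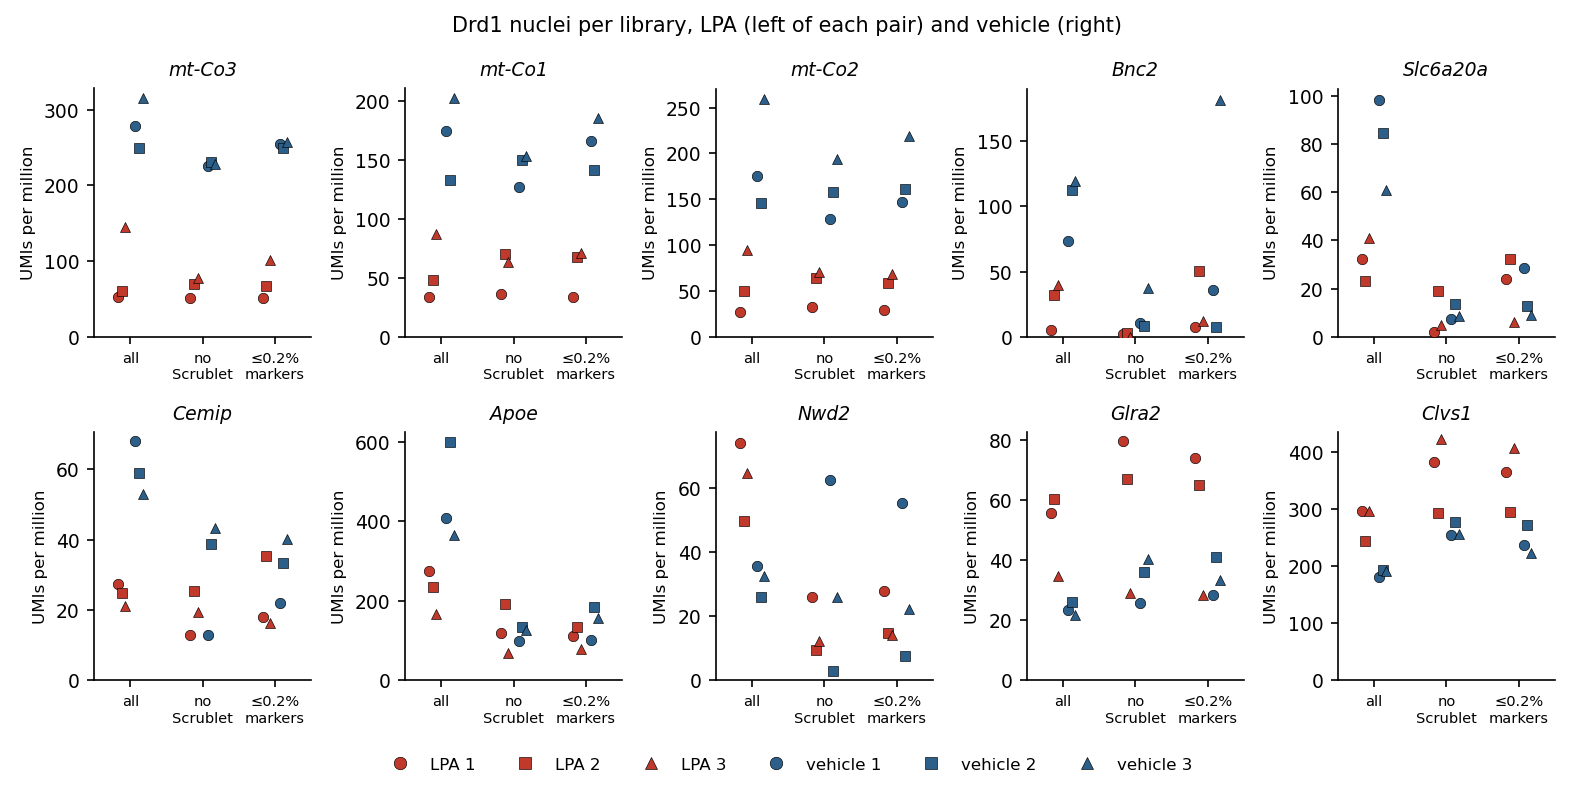
Levels of 10 genes in the Drd1 nuclei in CPM, 1 point per library, for all Drd1 nuclei, without Scrublet calls and with non-neuronal markers at most 0.2% of UMIs. The mt-Co3 and mt-Co1 points stay separate in all sets of nuclei, whereas those of Slc6a20a and Apoe separate only with all Drd1 nuclei.

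No gene was called higher in LPA, and the 5 of lowest p are given as values. Nwd2, which encodes a NACHT and WD repeat protein, was at 74.1, 49.7 and 64.8 CPM against 35.9, 26.2 and 32.6 in vehicle (log2 fold change 1.06 ± 0.22, edgeR, adjusted p = 0.0754). Glra2, a glycine receptor subunit gene, was at 55.9, 60.4 and 34.9 against 23.6, 26.2 and 21.7 (1.09 ± 0.25, edgeR, adjusted p = 0.105). Clvs1 (0.62), Fstl5 (0.65) and Kctd8 (0.64) had adjusted p of 0.0813, 0.0842 and 0.191. All of these 5 genes were called higher with the number as a replicate block, where 17 genes were higher and 39 lower, and with no filter on low counts, where 16 were higher and 64 lower. Nwd2 was also called at a Rarb plus Pde10a gate of 10 UMIs (edgeR, adjusted p = 0.0230) and with sex as a covariate (adjusted p = 0.0158), and Glra2 without LPA 3 (adjusted p = 0.0460). With non-neuronal markers at most 0.2%, Nwd2 was at -0.67.

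No member of the lists of neuronal function was called. Tac1 had a log2 fold change of 0.06, Pdyn -0.21 and Isl1 0.46 between LPA and vehicle, with adjusted p of 0.965, 0.914 and 0.751 (edgeR). Of 18 shared projection neuron genes 0 were called. Their median log2 fold change was 0.31 against -0.0030 over all genes, and in 7 every LPA library lay above every vehicle library, where 6.33% of all genes did. Without Scrublet calls this median was 0.12. Of 12 glucocorticoid response genes 0 were called at a median of -0.43, which was -0.13 without Scrublet calls. Under the upper UMI limit 1 of 10 was called lower at a median of -0.33. Of 8 immediate-early genes and 5 injury and stress genes tested 0 were called.

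LPA receptor transcripts were sparse in Drd1 nuclei. Lpar1 was at 31.2, 49.7 and 44.9 CPM in LPA and 40.6, 81.4 and 51.6 in vehicle, with overlapping groups (log2 fold change -0.44 ± 0.26, edgeR, adjusted p = 0.700). Under the upper UMI limit alone this value changed sign, to 0.22 (edgeR, adjusted p = 0.980). An Lpar1 UMI was present in 18.6% of Drd1 nuclei and in 66.1% of the oligodendrocyte nuclei gated on Mog. How much of the Lpar1 level in Drd1 nuclei came from RNA of other cells was not tested. Lpar6 was at 5.20 to 6.23 against 6.78 to 14.5 CPM. Over all 516 nuclei Lpar2 had 4 UMIs, Lpar3 10, Lpar4 14 and Lpar5 1. Rbfox3 was at 472, 458 and 415 CPM in LPA and 395, 277 and 370 in vehicle (0.41 ± 0.14, edgeR, adjusted p = 0.397).

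Whether the LPA effect differed between Drd1 and Drd2 nuclei was tested as an interaction of class and treatment. Of 12609 genes 2 were called (0.0159%), of which Chrm3 is described here, and 816 had an unadjusted p under 0.05 by edgeR. Chrm3 was at 70.2, 55.1 and 110 CPM of Drd1 nuclei in LPA and 141, 109 and 182 in vehicle, so that LPA 3 lay above vehicle 2. In Drd2 nuclei it was at 294, 287 and 344 in LPA and 251, 234 and 318 in vehicle. The log2 effect in Drd1 nuclei was lower than that in Drd2 nuclei by 1.01 ± 0.18 on the log2 scale (edgeR, interaction -1.01, adjusted p = 0.0487). Under the upper UMI limit the Chrm3 interaction was -0.35 (edgeR, adjusted p = 0.990). Chrm3 also lost its call at a receptor gate of 3 UMIs (-0.80), at a Rarb plus Pde10a gate of 10 UMIs (-1.04), with DESeq2 (-1.02), and without LPA 1 (-0.97), vehicle 2 (-1.11) or vehicle 3 (-0.96).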

How the data were processed

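Single-nucleus libraries of 3 LPA-injected and 3 vehicle-injected mouse brains were used. The deposited counts were raw UMIs per gene and barcode, which the authors made with Cell Ranger 4.0.0 and a pre-mRNA reference of mm10, so intronic reads were counted. Library totals are given in the results, and intervals cover counting error only. The study's supplement plots values of these samples as individual mice, and each library read as a single sex.

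Barcodes with at least 300 genes and at most 1% mitochondrial UMIs were kept. Doublets were called per library with Scrublet (scanpy 1.11.5, expected rate 0.08) and were not removed, and each comparison was repeated without them. UMIs were summed per library and class and tested with edgeR 4.0.16 (R 4.3.3, limma 3.58.1): filterByExpr, TMM, quasi-likelihood fit, Benjamini-Hochberg adjustment over all genes tested. The 7 genes of the rule, and the 3 genes of the striosome gate in that comparison, were left out of the fits. Calls needed adjusted p under 0.05 and an absolute log2 fold change of 0.25 (LPA), 0.5 (striosome) or 1 (class), or adjusted p alone (interaction). Levels are CPM without TMM factors, and errors of fold changes are SE. Shares were compared by a two-sided exact permutation test (scipy 1.17.1). The scripts were tested on simulated data.

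Alternatives were removal of Scrublet calls, an upper UMI limit (upper quartile plus 1.5 interquartile ranges, per library), other gates, no mitochondrial filter, thinning to 4000 UMIs, DESeq2 1.42.0, no filter on low counts, no TMM, other covariates and leaving out each library. The limit of 0.2% non-neuronal markers was added after the data were seen. Named genes were the 10 called genes of lowest p in each direction for LPA (5 where fewer than 5 were called), the 10 of largest fold with at least 20 CPM in the higher class for classes, list members, the genes of the rule, the LPA receptors and Rbfox3. A few called genes are counted but not reported here by name. The members and all lists were chosen with earlier results of these data known. Same-numbered libraries of the 2 groups were not paired by the labels. Gene positions are from GENCODE M21 (mm10) and promoters from RefSeq (GRCm38.p6), which matched Tac1, Pdyn and Isl1.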

Additional observations from a re-analysis of the deposited data

Results flagged for a closer look

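Among 120 groups of 6 libraries examined, 6 held a library far from the rest, and chance alone gives about 1 in 20. In Drd1 nuclei Cntnap3 was at 65.9 CPM in vehicle 2, with the nearest library at 125.5 CPM. Among the Drd1 nuclei without a UMI of the 3 striosome genes, Crym was at 193.9 CPM in vehicle 1, with the nearest at 109.4 CPM. In Drd2 nuclei Gm45680 was at 9.889 CPM in vehicle 2 (nearest 4.816) and Nos1 at 19.55 CPM in LPA 1 (nearest 9.177). In Otof/Chst9 nuclei Kcng1 was at 9.634 CPM in LPA 3 (nearest 5.041) and Sphkap at 246.4 CPM in vehicle 3 (nearest 192.5).

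The LPA effect differed between Drd1 and Drd2 nuclei for Chrm3, by -1.013 on the log2 scale (edgeR interaction, adjusted p = 0.0487). The mean Chrm3 level in Drd1 nuclei was 78.3 ± 28.2 CPM with LPA and 144 ± 36.7 with vehicle (SD, n = 3 each), and 81.1 ± 7.15 against 147 ± 45.2 without Scrublet calls. In Drd2 nuclei Chrm3 was at 308 ± 31.2 with LPA and 268 ± 44.6 with vehicle. The interaction was -0.35 under the upper UMI limit (edgeR, adjusted p = 0.990), and it also missed the threshold at both stricter gates, with DESeq2 and without LPA 1, vehicle 2 or vehicle 3.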

How the results depend on the processing

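The limits of these data are the number of libraries, 3 a group, and the number of Drd1 nuclei, 60 to 110 a library. Drd1 against Drd2 nuclei called 69 genes, with 135 without Scrublet calls (97 higher, 38 lower), 121 under the upper UMI limit, 114 with non-neuronal markers at most 0.2% and 106 with no filter on low counts. Leaving out a library gave 62 to 79. Against Otof/Chst9 nuclei 172 genes were called, with 316 without Scrublet calls (135 higher, 181 lower), 285 under the upper UMI limit (131 higher, 154 lower), 312 with no filter and 257 with non-neuronal markers at most 0.2% (114 higher, 143 lower). Leaving out a library gave 163 to 227.

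The striosome comparison called 230 genes, with 133 without Scrublet calls, 132 under the upper UMI limit, 128 with non-neuronal markers at most 0.2%, 8 at a receptor gate of 3 UMIs, where 1897 genes were tested, 134 with DESeq2, 435 with no filter and 140 after thinning. Leaving out a library gave 107 to 266, the lowest counts without vehicle 2 (107), vehicle 1 (116) and LPA 2 (125).

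LPA against vehicle called 9 genes, with 5 without Scrublet calls, 5 with DESeq2, 80 with no filter (16 higher, 64 lower) and 21 with sex as a covariate (1 higher). At a receptor gate of 3 UMIs 1 gene was called, which was not among the 9. Leaving out a library gave 0 to 13, with 0 without LPA 1 or LPA 2. The interaction called 2 genes, with 1 without Scrublet calls, 1 with non-neuronal markers at most 0.2%, 0 under the upper UMI limit, at a receptor gate of 3 UMIs and with DESeq2 (211 genes at an unadjusted p under 0.05), 15 at a Rarb plus Pde10a gate of 10 UMIs (Chrm3 not among them) and 36 with no filter. Leaving out a library gave 0 to 18, with 0 without vehicle 2 or vehicle 3 and 18 without LPA 2 or vehicle 1.

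With the number as a replicate block, LPA against vehicle called 56 genes (17 higher, 39 lower), and the exact p of the shares was 0.5 and 0.75. Deviations of same-numbered libraries correlated at 0.146, 0.204 and 0.0068. LPA 1 correlated best with vehicle 1, with vehicle 3 close at 0.132 and vehicle 2 at -0.237. LPA 2 correlated best with vehicle 2, against -0.101 with vehicle 1 and -0.138 with vehicle 3. LPA 3 correlated best with vehicle 2 (0.0344). These few correlations do not decide whether the numbers pair the libraries.

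The difference in the Drd1 share of nuclei was -0.255 to 0.0492 percentage points when a library was left out, and that in the share of Drd1 plus Drd2 nuclei -3.49 to 1.36, both positive without vehicle 1 alone. The latter was 0.712 without Scrublet calls. Among single genes the LPA value changed sign for Apoe (0.066 without Scrublet calls), Nwd2 (-0.67) and Slc6a20a (0.15), both with non-neuronal markers at most 0.2%, and Lpar1 (0.22 under the upper UMI limit). Rbfox3 against Otof/Chst9 nuclei was at -0.070 without Scrublet calls, -0.097 under the upper UMI limit, -0.080 with non-neuronal markers at most 0.2% and -0.0038 after thinning. All other single-gene values kept their direction. The 263 LPA values include those of named genes that were not called and so had no call to lose. Among the values of the 9 called genes 58 lost their call, besides those of Apoe and Slc6a20a above. A further 13 values gained a call, all for genes higher in LPA. Of 30 interaction values 16 lost their call, and of 313 striosome values 14. The cause of these changes was not tested.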

Other observations

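Genes outside the naming rule also separated Drd1 from Drd2 nuclei, and those given here were chosen after their values were seen. Foxp2, a forkhead transcription factor gene, ranged from 862 to 1013 CPM in Drd1 nuclei and from 278 to 362 CPM in Drd2 nuclei (log2 fold change 1.48 ± 0.07, edgeR, adjusted p = 3.98e-13). A Foxp2 UMI was present in 88.4% of Drd1 nuclei, 66.2% of Drd2 nuclei and 85.7% of Otof/Chst9 nuclei, so the gene was not particular to Drd1 nuclei. Lingo2, which encodes a leucine-rich repeat adhesion protein, was at 1516, 1460 and 1499 CPM in the Drd1 nuclei of LPA 1, 2 and 3, at 1435, 1327 and 1410 CPM in those of vehicle 1, 2 and 3, and at 367 to 531 CPM in Drd2 nuclei, with a log2 fold change of 1.56 ± 0.07. The Lingo2 difference was 2.83 ± 0.10 without Scrublet calls, 3.01 ± 0.10 under the upper UMI limit and 2.59 ± 0.09 with non-neuronal markers at most 0.2%. Among the Drd1 nuclei Lingo2 was lower in striosome-marker nuclei, at 851 to 1283 CPM against 1890 to 2615 CPM in the nuclei without a UMI of the 3 genes.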
